A study of Rattus norvegicus with 3 samples.

Results

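Immediate early genes are switched on within minutes of a stimulus without new protein synthesis, and 10 of them were followed in rat kidney proximal tubules that had been isolated with an enzyme. The genes were Fos, Fosb, Jun, Junb, Jund, Egr1, Atf3, Dusp1, Zfp36 and Ier2, taken by name, with every array probe set annotated to that 1 gene. All 10 genes were present, and they held 16 of the 20826 probe sets that name 1 gene (31099 probe sets in all, 14217 named genes). The tubules came from male Sprague-Dawley rats, 7 to 8 weeks old, and 3 preparations were each measured on 1 Affymetrix array. Per the labels, each rat received 250 units of heparin into the abdominal cavity 30 min before decapitation. Cold saline buffer (10 ml) and warmed collagenase (10 ml at 2 mg/ml) were then run backwards through the aorta. The cortex was cut out and kept in collagenase for 20 min, and a 42.5% Percoll gradient separated the tubules. All 3 arrays shared this handling and formed 1 group, with no undigested kidney and no other control beside them. The values therefore describe levels after digestion, and no effect of digestion was measured. How many animals went into each preparation is not given in the labels.

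In many tissues, wounding, growth factors, calcium and mechanical stress act through MAP kinases and protein kinase A on factors that already sit on the promoters of these genes. Serum response factor binds the CArG box and CREB binds the cyclic AMP response element. The Fos and Jun proteins made from the induced mRNAs pair into AP-1, a transcription factor that binds DNA through basic leucine zippers, while Dusp1 and Zfp36 encode proteins that end the response. Their mRNAs are short-lived, and tissue dissociation is known to raise several of them in other settings.

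Promoter sequence from RefSeq (build GRCr8) was matched for 7 members, Fosb, Junb, Jund, Egr1, Dusp1, Zfp36 and Ier2, and was not given here for Fos, Jun and Atf3. The 250 bases before each start were searched on both strands for TGACGTCA, the full cyclic AMP response element, for its core TGACG, for the AP-1 site TGANTCA and for the CArG box. Matches to TGACGTCA also count as matches to TGACG. TGACGTCA stood in 3 of the 7 member promoters (Jund, Dusp1 and Ier2), against 1.68% of 27457 rat promoters of the same length. TGACG stood in 5 of the 7, against 18.9% of all promoters, and TGANTCA stood in 0 of the 7, against 6.39%. The CArG box stood in 2 of the 7, Egr1 and Zfp36, against 1.5% of all. Among 33 promoters of other immediate early genes, TGACGTCA stood in 3, TGACG in 18, TGANTCA in 1 and the CArG box in 3. Egr1 held 2 CArG boxes, at 105 to 96 and at 83 to 74 bases before the start. The single match in Zfp36 lay 32 to 23 bases before the start. A match describes letters in this window and shows no binding. The 5 promoters that hold a full element or a CArG box are shown 5′ to 3′, with capitals marking matches to any of the motifs searched.
Egr1 (chr18:26736828-26737077, strand +): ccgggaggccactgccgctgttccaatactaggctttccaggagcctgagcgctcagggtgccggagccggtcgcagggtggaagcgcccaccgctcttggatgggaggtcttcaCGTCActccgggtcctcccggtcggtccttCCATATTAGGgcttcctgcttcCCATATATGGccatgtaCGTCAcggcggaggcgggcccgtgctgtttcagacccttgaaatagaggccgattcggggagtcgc
Zfp36 (chr1:92799109-92799358, strand -): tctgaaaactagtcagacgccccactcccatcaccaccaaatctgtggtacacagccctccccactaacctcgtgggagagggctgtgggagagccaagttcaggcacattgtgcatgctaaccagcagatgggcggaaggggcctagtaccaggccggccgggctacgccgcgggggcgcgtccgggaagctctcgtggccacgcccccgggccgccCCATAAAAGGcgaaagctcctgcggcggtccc
Dusp1 (chr10:17184603-17184852, strand +): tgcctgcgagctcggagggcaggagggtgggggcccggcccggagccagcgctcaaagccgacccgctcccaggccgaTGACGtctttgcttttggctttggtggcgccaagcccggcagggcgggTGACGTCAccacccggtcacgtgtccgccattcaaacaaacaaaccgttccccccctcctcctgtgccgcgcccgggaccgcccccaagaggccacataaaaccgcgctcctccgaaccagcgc
Ier2 (chr19:40399123-40399372, strand +): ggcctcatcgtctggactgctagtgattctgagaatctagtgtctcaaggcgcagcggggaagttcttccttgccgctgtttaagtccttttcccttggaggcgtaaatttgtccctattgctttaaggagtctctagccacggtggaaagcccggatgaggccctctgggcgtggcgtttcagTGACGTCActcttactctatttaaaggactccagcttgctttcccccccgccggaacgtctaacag
Jund (chr16:18769772-18770021, strand -): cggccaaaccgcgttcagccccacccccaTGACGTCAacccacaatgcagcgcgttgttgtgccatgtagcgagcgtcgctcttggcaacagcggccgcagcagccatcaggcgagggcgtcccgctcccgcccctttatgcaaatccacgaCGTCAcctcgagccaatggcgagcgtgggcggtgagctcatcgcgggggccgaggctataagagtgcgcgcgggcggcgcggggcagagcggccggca

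Signals are deposited probe-set intensities on a linear scale, given for arrays 1, 2 and 3 in that order and as mean ± SD (n = 3). Because affinity varies between probe sets, no gene's level is ranked against another's. The array median over all probe sets other than controls was 37.1, 37.4 and 34.9. As a low-end guide, the 18 probe sets of olfactory receptor genes had a 95th percentile of 16.7, 23.0 and 19.7. All 11 markers of proximal tubule cells exceeded the median of every array, among them the megalin gene Lrp2 at 8550 ± 570. So did 5 of 6 markers of the thick limb and distal tubule, among them Umod at 4942 ± 656. Of the 7 markers listed for macrophages and dendritic cells, 3 exceeded the median of every array, among them Cd74 at 4263 ± 1086. Cd68, Cd163, Adgre1 and Ptprc stayed under the median on every array. Passing the median therefore does not show that the samples were free of other cells. Control probe sets for the 3′ end exceeded those for the 5′ end by 3.28 to 3.85 times for beta-actin and 1.40 to 1.52 times for GAPDH. Of the 16 member probe sets, 10 exceeded the median of every array, against 54.5% of all probe sets naming 1 gene. Above the 75th percentile of each array lay 6 of 16, against 29% of all. Above the olfactory guide on all 3 arrays lay 13 of 16, against 62.6% of all, and these 13 included at least 1 probe set of each of the 10 genes. Taking each gene by its probe set of highest mean signal, 8 of 10 lay above the median on all 3 arrays, against 61% of all genes. The exceptions, Fosb and Ier2, passed the median on 2 arrays each.

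The Fos family supplies AP-1 with partners that cannot pair among themselves. Fos, the founding member, gave 199, 214 and 289 with probe set 1375043_at (234 ± 48.1). All 3 values lay above the 75th percentile of their array, and array 3 was the high one. The other Fos probe set, 1371283_at, gave 2.81, 15.9 and 2.45 (7.06 ± 7.67), under the olfactory guide on every array, so no order of the arrays is read from it. Fosb, whose protein shares the zipper of Fos, gave 35.9, 40.8 and 45.6 (40.8 ± 4.84). These values straddle the array median, and the lowest, on array 1, fell just under it. Among the other Fos relatives, Fosl1 gave 9.03 ± 3.21 and Fosl2 18.1 ± 4.33, under the array median on all 3 arrays. Both were singled out after their values were seen.

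The Jun family pairs with Fos proteins or with itself. Jun had 3 probe sets, of which those ending in _s_at can match several transcripts. The 1 of highest mean, 1389528_s_at, gave 652, 945 and 713 (770.2 ± 154). Probe set 1369788_s_at gave 287, 371 and 261 (306 ± 57.7), and 1374404_at gave 151, 213 and 175 (179.5 ± 31.6). All 3 had array 2 highest, with the highest array 1.42 to 1.45 times the lowest. The probe sets of Jun thus had their highest array in common while their signals differed. Their lowest array was not shared: it was array 1 for 1389528_s_at and 1374404_at, and array 3 for 1369788_s_at. Probe sets 1389528_s_at and 1374404_at were designed on the same sequence record and are not independent. Junb, a Jun relative that often restrains growth, gave 62.0, 77.6 and 79.5 (73.0 ± 9.63). Array 1 was low and the other two were close together.

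Jund, the Jun member known for steady expression in unstimulated cells, had 3 probe sets with very different signals. Probe set 1393138_at gave 1421, 1654 and 1956 (1677 ± 268), far above the 75th percentile of every array. Probe set 1387762_s_at gave 11.8, 29.6 and 44.1 (28.5 ± 16.2), and 1375768_at gave 0.940, 2.51 and 1.19 (1.55 ± 0.846). The middle probe set passed the array median on array 3, and its highest array read 3.74 times its lowest. It shared with 1393138_at its lowest array, 1, and its highest, 3. The value of the gene as a whole is that of 1393138_at. No sequence record is given for this probe set, while the weaker 1387762_s_at carries a RefSeq mRNA record.

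Egr1 and Atf3 encode factors outside AP-1 in the strict sense. Egr1, a zinc finger factor induced through serum response factor, gave 78.6, 101 and 126 (102 ± 23.8). The 3 arrays were spread about evenly and all lay above the array median, and its promoter above holds 2 CArG boxes. The paralogs Egr2 (19.6 ± 7.37), Egr3 (20.1 ± 11.8) and Egr4 (17.9 ± 12.1) stayed under the array median on all 3 arrays and were likewise singled out after their values were seen. Atf3, a stress-induced leucine zipper factor that responds to injury in the kidney, gave 40.5, 39.2 and 42.6 (40.8 ± 1.72). Its coefficient of variation of 4.21% was the smallest of the 16 member probe sets, and its values lay just above the array median.

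Dusp1, Zfp36 and Ier2 complete the set. Dusp1, a phosphatase that switches off MAP kinases, gave 250, 263 and 285 with probe set 1368146_at (266 ± 17.9), and these values were close together. Its other probe set, 1368147_at, gave 35.2, 26.4 and 22.9 (28.2 ± 6.36), under the array median on all 3 arrays and with array 1 highest instead of lowest. Zfp36, which encodes tristetraprolin, a protein that marks mRNAs with AU-rich elements for decay, gave 641, 502 and 453 (532 ± 97.5). Here array 1 was high and array 3 low. Ier2, a nuclear protein of the early response, gave 27.8, 49.0 and 49.4 (42.1 ± 12.3), with array 1 under the array median and the others above it.

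**Figure D1:**
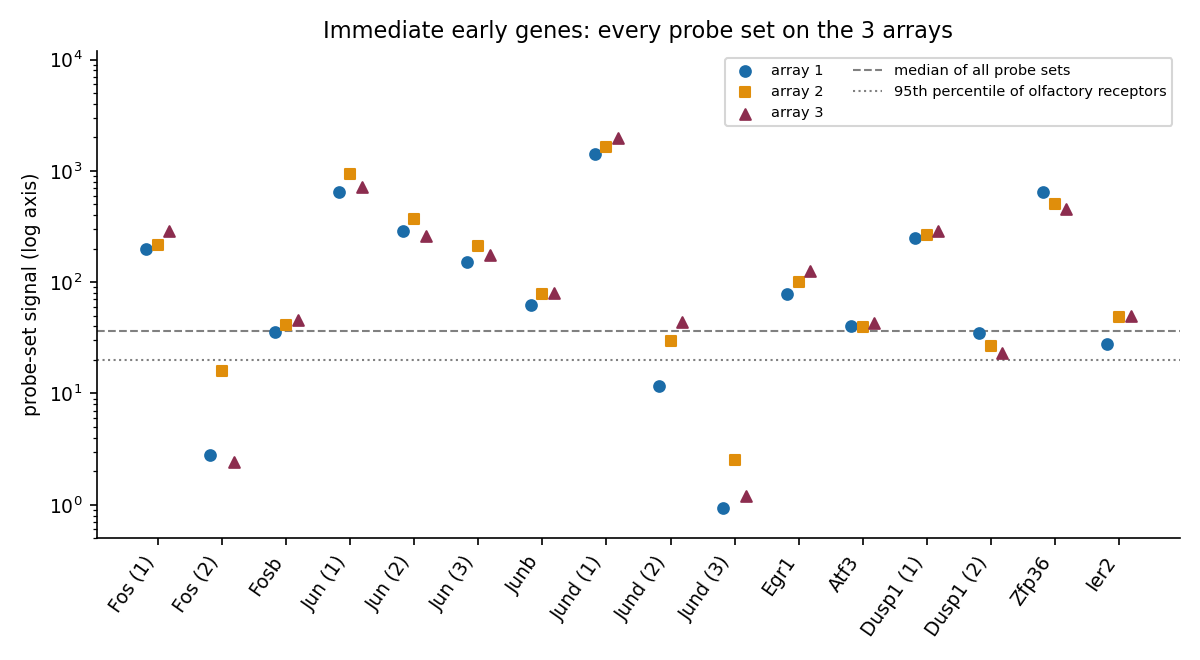
Signal (log axis) of all 16 member probe sets, grouped by gene, with 1 point per array; numbers in brackets order the probe sets of a gene by mean signal. The dashed line is the mean of the 3 array medians and the dotted line the mean of the olfactory 95th percentiles. The lower probe sets of Fos, Jund and Dusp1 lie far under the upper ones of the same gene.

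The preparations were next compared with each other. For this, the array's median was subtracted from log2(signal + 16), a scale that understates changes of low signals. Each array is a single sample, so differences between arrays have no replicate and no test. Of the 16 member probe sets, 1 ranged by 1 log2 unit (2-fold) or more on this scale, Jund 1387762_s_at with 1.18, against 4.72% of all probe sets naming 1 gene. As plain signals, Fos 1371283_at and Jund 1375768_at also differed by more than that, 6.51 and 2.67 times, both under the olfactory guide. Of the 10 member probe sets above the median on every array 0 did, against 1.41% of all such probe sets. Of the 10 member genes by their highest probe set, 0 did, against 4.46% of all genes. The ranges of the genes had a median of 0.47 log2 units, beside 0.34 over all genes. They ran from 0.16 for Atf3 to 0.65 for Egr1. The top place depended on the setting, with Ier2 at 0.89 and Egr1 at 0.76 for a pseudocount of 1, Jun at 0.49 and Egr1 at 0.45 for a pseudocount of 64, and Jun at 0.69 and Egr1 at 0.68 for quantile normalization. Ier2 (0.64) and Fos (0.57) lay next to Egr1, Jund and Jun each had 0.52, Zfp36 had 0.42, Junb 0.36, Fosb 0.31 and Dusp1 0.24. A range as large as that of Egr1 was found in 7.90% of the probe sets above the median on all 3 arrays, one as large as that of Fos in 12.3%, and one as large as that of Dusp1 in 62.0%.

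**Figure D2:**
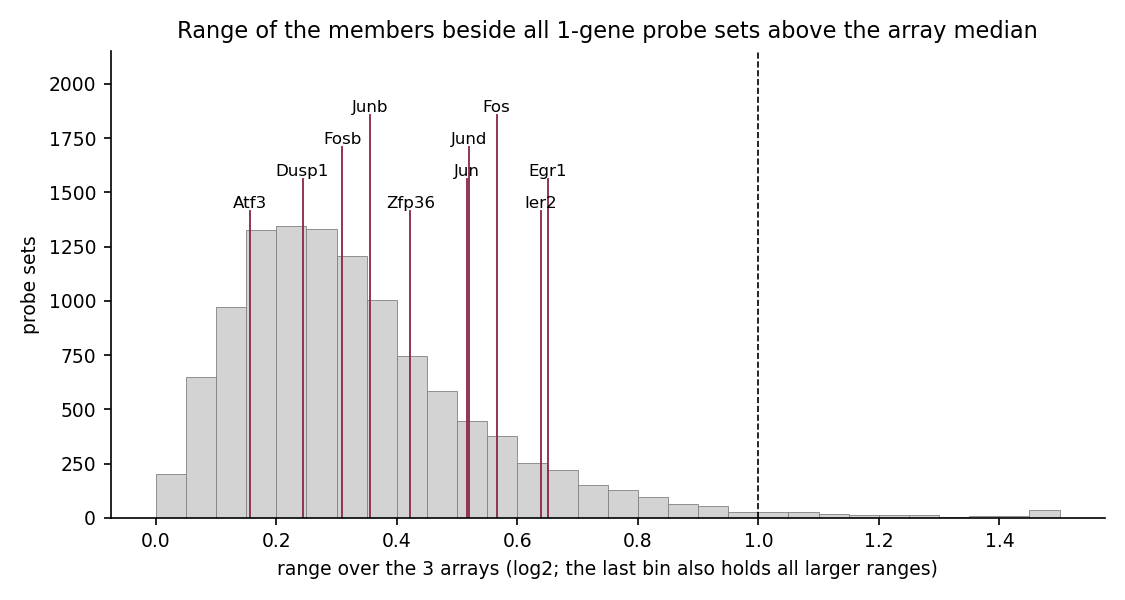
Histogram of the range over the 3 arrays (log2 units) of all 1-gene probe sets above the array median on all 3 arrays, with a line at the range of each member gene. Fosb and Ier2 are marked although they were not above the median on every array. All 10 members lie left of the dashed line at 1 log2 unit, with Atf3 at 0.16 and Egr1 at 0.65.

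Most members shared an order of the arrays. Lowest on array 1 and highest on array 3 were 7 of 10 member genes, Fos, Fosb, Junb, Jund, Egr1, Dusp1 and Ier2, against 15.3% of all genes. Of the 8 member genes above the median on every array 5 had it, against 12.2% of all such genes. Higher on array 3 than on array 1 were 9 of 10 (8 of 10 with the probe sets of a gene averaged), against 48% of all genes by their highest probe set. This order was singled out after the values were seen. The deviation of a gene on an array is its log2 value there minus its own mean over the arrays. Over arrays 1, 2 and 3 the median deviation of the 10 members was -0.21, -0.03 and 0.16, where that of all genes was 0.04, -0.06 and 0.02. Jun had its highest array in common with none of these genes, Zfp36 ran opposite to them, and Atf3 differed little between arrays. By probe sets, 8 of 16 had this order, against 15.6% of all probe sets naming 1 gene. With the probe sets of a gene averaged, 5 of 10 genes had it, against 15.9% of all genes treated likewise.

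Markers of other cell types also differed between the arrays. All 5 measured of 6 endothelial markers exceeded the median of every array, none of them was near 0, and each was lowest on array 1. Pecam1, the endothelial adhesion gene, gave 42.8, 74.2 and 137, and Plvap, of the fenestrated capillary wall, gave 185, 286 and 396. The summed signal of the 5 was 756, 1059 and 1269, and their median deviation was -0.38, 0.02 and 0.39, wider apart than that of the members. Pecam1, Plvap and Kdr were highest on array 3, and Tek and Emcn on array 2. The 7 stromal and smooth muscle markers summed to 505, 492 and 601 with a median deviation of -0.07, -0.04 and 0.19. Of these, 4 exceeded the median of every array, and Lum stayed near 0 at 1.23 ± 0.735. The 5 collecting duct markers had a median deviation of -0.22, -0.13 and 0.26 at a summed signal of 1061, 936 and 1065. Of these, 2 exceeded the median of every array. Most of the sum was Aqp3 (940, 808 and 858), which was highest on array 1, unlike that median. Lowest on array 1 and highest on array 3 were 3 of the 5, against 15.3% of all genes. By their medians, the 11 proximal tubule markers were not lowest on array 1 and highest on array 3. Their median deviation was 0.07, -0.11 and 0.06, and their summed signal 73291, 66208 and 69979. In such bulk RNA, fewer cells of a type and less RNA per cell cannot be told apart. Whether endothelial or other non-tubule RNA contributed to the order of the immediate early genes was not tested.

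**Figure D3:**
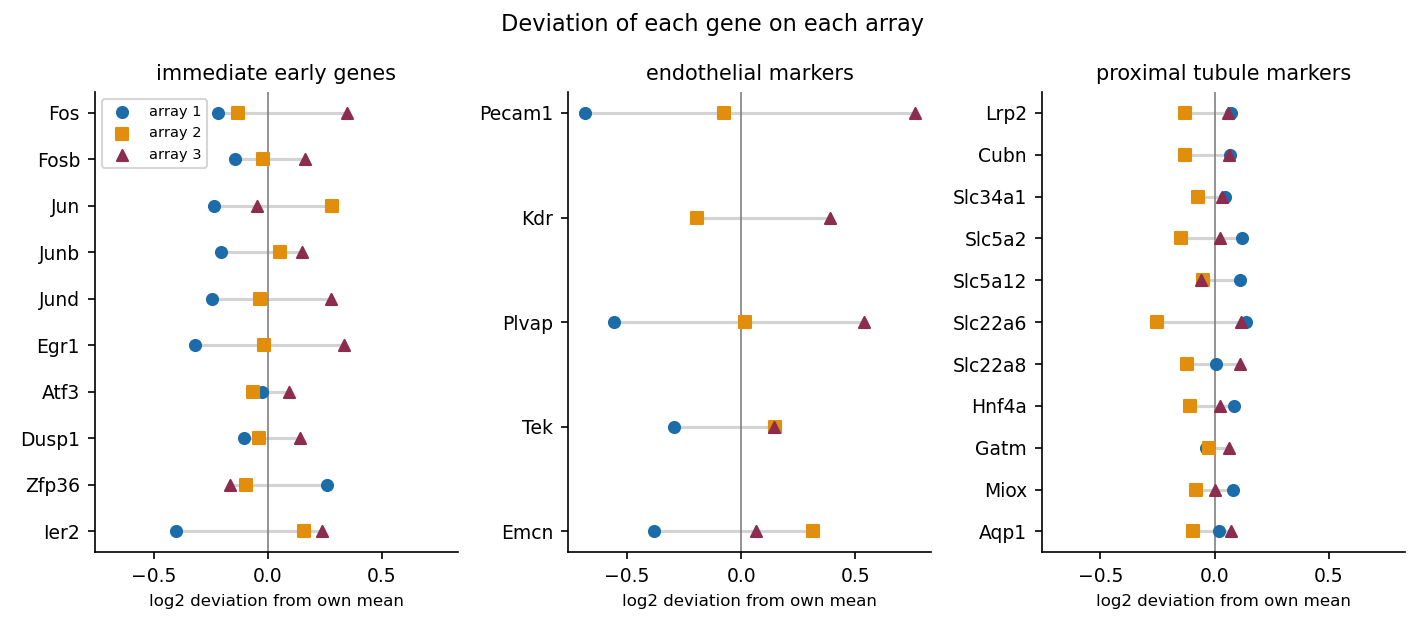
Deviation of each gene on each array from its own mean (log2 units), for the 10 immediate early genes, 5 endothelial markers and 11 proximal tubule markers. Array 3 lies right of 0 for 8 of 10 immediate early genes and all 5 endothelial markers, and array 1 lies left of 0 for 9 of 10 and all 5.

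On the scale used here Egr1 had the largest range of the members, and the genes closest to it over the 3 arrays were sought among 8674 genes above the median on all arrays. The measure was the root-mean-square difference of their deviations, and 3 arrays leave many genes close by, 207 of them within 0.1 log2 units. The closest was Nr4a1, an orphan nuclear receptor that is itself an immediate early gene, with 88.4, 114 and 141 (114 ± 26.3) and a difference of 0.0029 log2 units. Its signals rank the arrays as those of Egr1 do and its range was 0.65. Next came Pdlim7, an actin-associated adaptor (0.0126), Efhd1, a mitochondrial calcium-binding protein (0.0135), Rflnb (0.0179) and Rnf213 (0.0193). With a pseudocount of 64 Nr4a1 ranked 2 and with quantile normalization it ranked 5.

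Other genes of the early response were read from a list of 44, of which 43 were measured. Exceeding the median of every array were 25 of 43, against 61% of all genes. Genes with strong signals, which also reflect probe affinity, included Errfi1, a feedback inhibitor of the EGF receptor (2676 ± 886), Mcl1, a survival factor (1810 ± 244), and Zfp36l1, a paralog of Zfp36 (1797 ± 228). Gadd45b gave a weak signal (7.95 ± 4.24). Lowest on array 1 and highest on array 3 were 15 of 43, against 15.3% of all genes, and the list had a median deviation of -0.01, -0.03 and 0.07. Ranging 2-fold or more and above the median on at least 1 array were 3 of 43, against 2.2% of all genes. They were Klf2, a flow-induced factor of endothelium, with 109, 148 and 264, Ccn1, a matrix-associated early gene, with 47.2, 124 and 29.4, and Per1, a clock gene that responds to glucocorticoids, with 242, 76.0 and 70.8. These genes had their high signal on different arrays, Klf2 on array 3, Ccn1 on array 2 and Per1 on array 1.

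Of 32 listed genes upstream of the response, 22 were measured, and 21 exceeded the median of every array, against 61% of all genes. Strong signals came from the MAP kinase kinase gene Map2k2 (1212 ± 67.9), Prkacb of protein kinase A (1066 ± 128) and Mapk14, the p38 kinase gene (825 ± 56.8). The exception was Rps6ka5, a kinase of histones and CREB (25.7 ± 7.70). None of the 22 ranged 2-fold or more, against 4.46% of all genes, and their median deviation was 0.01, -0.05 and 0.06. Srf and Creb1, the genes of serum response factor and CREB, were among them, with Srf at 195, 234 and 215 and Creb1 at 143, 189 and 172. Neither was highest on array 3. Lowest on array 1 and highest on array 3 were 4 of 22, against 15.3% of all genes, including Elk3, a partner of serum response factor, with 60.0, 79.7 and 108. Srf, Creb1 and Elk3 were singled out after their values were seen.

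Among 15 listed leucine zipper factors outside the members, 13 were measured and 8 exceeded the median of every array, against 61% of all genes. Maf, a factor of proximal tubule cells, gave 5435 ± 572, Atf4 of the integrated stress response 1450.5 ± 83.4, and Nfe2l2 of the oxidative stress response 1214 ± 291. Batf, a factor of lymphocytes, gave 2.01 ± 1.06. The median deviation of these 13 was 0.06, 0.02 and -0.02, and 3 of 13 were lowest on array 1 and highest on array 3, against 15.3% of all genes.

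**Figure D4:**
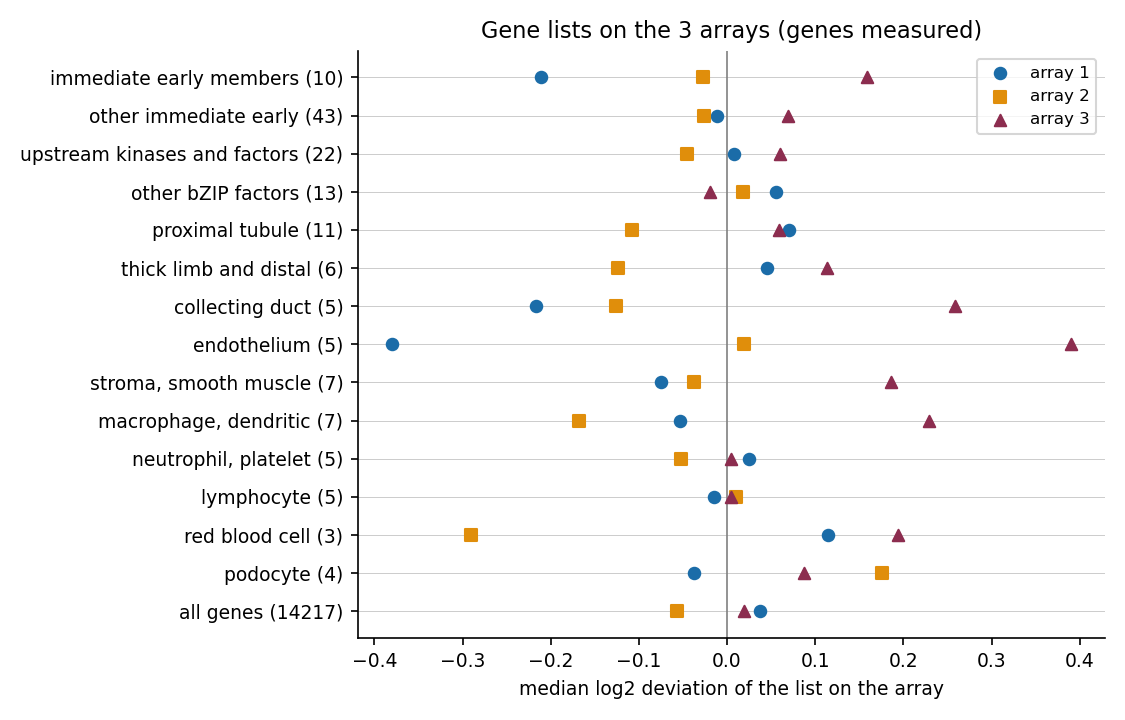
Median deviation (log2 units) of each gene list on each of the 3 arrays, with the number of genes measured in brackets. The immediate early members (-0.21, -0.03 and 0.16) lie between all genes (0.04, -0.06 and 0.02) and the endothelial markers (-0.38, 0.02 and 0.39) in the distance from array 1 to array 3.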

How the data were processed

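The authors deposited linear probe-set intensities; the summarisation software and the scaling between arrays are not given in the sources used here, and no detection calls were used. Gene names came from the platform annotation: 20826 probe sets named 1 gene, 436 several (left out) and 9780 none here. Of the former, 20758 matched a RefSeq gene of GRCr8 by gene identifier, which changed 0 symbols. The 57 control probe sets were left out of medians.

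Levels were set against each array's median over non-control probe sets. Between arrays, log2(signal + 16) was centred on that median. A gene took its probe set of highest mean signal. With 3 arrays in 1 group and 0 control groups no test was run, and the number of arrays limits the precision; the labels do not say that the preparations came from different animals, so the SD may be partly technical. Members and lists were chosen with earlier results of these data known. The naming rule took all 10 members, the 3 highest and the lowest gene of each pathway list, its genes ranging 2-fold or more and above the median on at least 1 array, the 5 genes closest to the member of largest range, and markers. Alternatives were pseudocounts of 1 and 64, no centring, quantile normalization, other level lines, other probe-set choices and leaving out arrays. Computation used Python 3.11.15, NumPy 2.4.6 and pandas 2.3.3 and was tested on simulated data.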

Additional observations from a re-analysis of the deposited data

How the results depend on the processing

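No paired analysis was possible because all arrays formed 1 group. The count of 7 of 10 member genes lowest on array 1 and highest on array 3 held with both other pseudocounts, without centring, with quantile normalization and without suffixed probe sets. This count was 5 of 10 with averaged probe sets. With only probe sets above the array median it was 5 of 8, as Fosb and Ier2 dropped out. It has no value with an array left out. Member probe sets above the line on all 3 arrays numbered 6 at the 75th percentile and 14 at the 25th in place of 10, and 10 to 12 with 1 array left out. Member probe sets ranging 2-fold or more numbered 2 with a pseudocount of 1, and 0 with a pseudocount of 64, without suffixed probe sets or among those above the median, in place of 1, and 0 to 1 with an array left out (0 without array 1 or array 3). The median deviation of the members on array 2 was near 0 and changed sign with quantile normalization (0.019), with averaged probe sets (0.0078) and with the mean over members (0.0096). With 1 array left out it ran from -0.084 to 0.083 on array 2, from -0.17 to -0.08 on array 1 and from 0.08 to 0.17 on array 3. The endothelial median on array 2 ran from -0.26 without array 1 to 0.29 without array 3. With 2 arrays left, the 2 deviations of a gene are equal and opposite. These values with an array left out are therefore not separate checks on each array. Other early genes ranging 2-fold or more, above the median or not, numbered 12 with a pseudocount of 1 and 1 with 64, in place of 5. The other leucine zipper factors that did numbered 3, 0 and, with quantile normalization, 2, in place of 1. The cause of these shifts was not tested. Of the members' ranges, all 40 under other settings moved by less than 1 SD of the gene's own 3 log2 values. That line is loose, as Ier2 stayed within it at 0.89 (pseudocount of 1) and 0.34 (pseudocount of 64), beside 0.64. With an array left out 10 of 30 moved by more, but this share was fixed in advance. For each gene, 1 of the 3 omissions reaches that line whatever the values, so the count carries no information. Signals near the olfactory guide limit Fosb, Ier2, Atf3 and the lower probe sets of Fos, Jund and Dusp1.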

Other observations

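By the probe set of highest mean signal, paralogs of the feedback genes Dusp1 and Zfp36 had other orders of the arrays. The phosphatase gene Dusp6, which acts on ERK, gave 294, 283 and 199 on arrays 1, 2 and 3, and Dusp5 gave 63.5, 73.6 and 50.5. Both were lowest on array 3, where Dusp1 was highest by 1368146_at but also lowest by 1368147_at. Dusp2 (57.0, 29.7 and 53.2) was lowest on array 2. Dusp4 (12.6, 5.31 and 10.4) lay under the olfactory guide on every array, so no order is read from it. The mRNA decay factor genes Zfp36l1 (1553, 1836 and 2003) and Zfp36l2 (445, 496 and 518) were lowest on array 1 and highest on array 3, the reverse of Zfp36. Errfi1 gave 3435, 2889 and 1702, a range of 0.94 log2 units. Ddit3, a leucine zipper factor of the unfolded protein response, gave 284, 195 and 147. Apart from Errfi1 and Zfp36l1, these genes were chosen after their values were seen.

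Of the remaining marker lists, the members above the median of every array, against 61% of all genes, were 3 of 7 for macrophages and dendritic cells (median deviation -0.05, -0.17 and 0.23, summed signal 5698, 3695 and 5676, of which Cd74 gave 4952, 3011 and 4827), 1 of 5 for neutrophils and platelets, 0 of 5 for lymphocytes, 1 of 3 for red blood cells, 1 of 4 for podocytes and 5 of 6 for the thick limb and distal tubule.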
